A study of Mus musculus with 9 samples.

Results

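HIF-1, hypoxia-inducible factor 1, was followed here through 10 genes of RAW264.7 cells, a mouse macrophage-like line. They are its regulated subunit gene Hif1a, the prolyl hydroxylase genes Egln1 and Egln3, and 7 targets outside glycolysis: Vegfa, Adm, Bnip3, Bnip3l, Ndrg1, Kdm3a and P4ha1. The genes were taken by name from a count table of 20627 features, and all 10 were found, each as 1 row. The study sequenced polyadenylated RNA in 3 groups of 3 libraries. NC was the control, for which the labels state neither glucose concentration nor time. HG received 35 mmol/l glucose for 6 h. HG-SIG received the same glucose for the same time together with sitagliptin phosphate, an inhibitor of dipeptidyl peptidase 4 whose concentration is not stated in the sources used here. All 3 groups were the same cell line in 1 labelled batch, and neither an osmotic control nor sitagliptin at control glucose was among the groups.

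HIF-1 is a pair of proteins, an alpha subunit made from Hif1a and a beta subunit made from Arnt. When oxygen is present, prolyl hydroxylases mark the alpha subunit, the Vhl ubiquitin ligase binds the mark, and the protein is destroyed. When oxygen is short the protein accumulates and binds hypoxia response elements of its targets, which include Egln1 and Egln3 themselves. In macrophages Hif1a is also induced by inflammatory signals through NF-kB, and HIF-1 supports glycolysis and cytokine production. RNA levels do not report the amount of HIF-1 protein, which was not measured here.

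Library totals ranged from 23285821 to 31571578 counts, and all 10 genes passed the filter on low counts. All 10 macrophage markers were found and 9 were tested (Mertk was not). Their summed level was 11100 to 11600 CPM (counts scaled to library depth) in NC, 10000 to 10800 in HG and 5200 to 5310 in HG-SIG. Lyz2 had the most counts of this list, 1271859 over the 9 libraries, and the sum does not show how each marker moved. The epithelial, lymphoid, fibroblast and erythroid lists each stayed at or below 0.209 CPM in every library, and the endothelial list, led by Vwf, at or below 1.39 CPM. The scaling matters for the sitagliptin comparison: by library size alone the median gene stood 0.17 higher in HG-SIG than in HG on the log2 scale, against 0.01 with the TMM scaling used here. In bulk RNA, fewer cells of a kind and less RNA per cell cannot be told apart.

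High glucose was compared with control first. Of the 10 genes 8 fell in HG and none rose. Across all 13311 genes tested, 29.5% were called in this comparison and 15.2% were called lower. For 8 genes every HG library lay below every NC library, as for 20.8% of all genes. The median log2 fold change was -0.44 for the 10 genes and 0.00 for all genes. Adm, Ndrg1, Vegfa and Bnip3 changed most, and Bnip3l and Egln3 did not pass. Addition of sitagliptin split the genes: in HG-SIG against HG, Ndrg1, Bnip3, P4ha1 and Hif1a fell further, Bnip3l rose, and 5 did not pass. This split of 4 lower and 1 higher depended on the scaling: it was 2 lower and 3 higher by library size alone, and 1 lower and 3 higher with limma on log2(TPM + 1), TPM being counts scaled to transcript length and depth. That count of 5 called is close to the 52.5% of all genes called, with 26.8% called lower and 25.7% higher; without overlap 3 of the 10 were lower and 1 higher, against 28.8% and 29.9% of all genes. Against NC, 7 of the 10 were lower in HG-SIG and 1 higher, where 58.6% of all genes were called, 28.7% lower and 29.9% higher. Without overlap the same numbers, 7 and 1, were lower and higher, against 31.7% and 34.2% of all genes. The 3 comparisons share libraries, so they are not separate evidence.

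**Figure D1:**
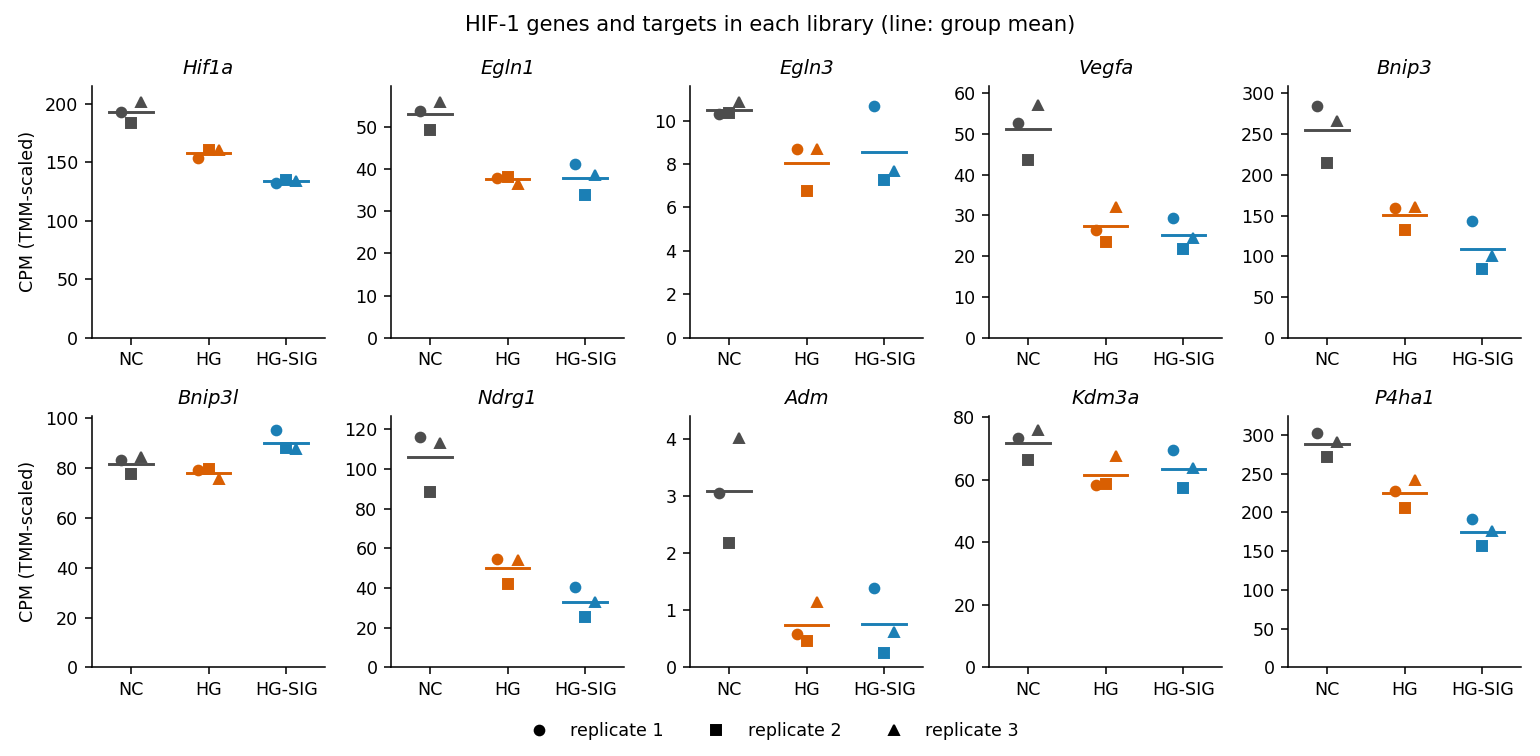
Level of each gene in TMM-scaled CPM (vertical axes, from 0) in the 9 libraries, by group (horizontal axes); symbols mark the replicate number and lines the group mean. Hif1a, Ndrg1 and P4ha1 step down from NC to HG to HG-SIG without overlap, Vegfa and Egln1 are lower in both glucose groups, and Bnip3l is highest in HG-SIG.

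Hif1a (ENSMUSG00000021109, chromosome 12, 73901375 to 73947530 in mm10, plus strand) encodes the oxygen-regulated subunit. Its level was 193, 184 and 202 CPM in NC replicates 1 to 3, 154, 161 and 161 CPM in HG, and 133, 135 and 134 CPM in HG-SIG. The groups did not overlap, and each was lower than the one before. The log2 fold change was -0.29 ± 0.04 (SE) in HG against NC (adjusted p = 1.3e-04) and -0.24 ± 0.04 in HG-SIG against HG (adjusted p = 2.7e-04). From NC to HG-SIG it fell by 30.5%. Of the steps, the one to HG held under every scaling tried and the one to HG-SIG did not. By library size alone the change with sitagliptin was -0.08 (adjusted p = 0.101), and with limma on log2(TPM + 1) -0.04 (adjusted p = 0.466). A gene on the opposite strand, Gm15283, overlaps 5.6% of the exonic length of Hif1a, and whether counting used the strand is unknown here. Among 9405 tested genes whose average log2 CPM reached 2, those most like Hif1a across the 9 libraries by Pearson's r of log2 CPM were Lgals3bp (0.993), Osbpl8 (0.992) and Por (0.990), as a description over libraries that share the 3 groups.

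The other tested HIF subunit genes, Arnt and Epas1, did not follow Hif1a. Arnt, the beta subunit gene, had 60.3 CPM in NC, 58.2 in HG and 72.7 for HG-SIG; it did not pass in HG against NC (log2 fold change -0.05, adjusted p = 0.403) and rose with sitagliptin (0.32 ± 0.04, adjusted p = 3.5e-05). Epas1, which encodes the alternative alpha subunit HIF-2 alpha, had 85, 88 and 173 counts in the 3 groups and rose in HG-SIG against HG (0.64 ± 0.22, adjusted p = 0.024). That call was lost without HG replicate 1, HG-SIG replicate 2 or HG-SIG replicate 3 (adjusted p = 0.0962, 0.0902 and 0.06) and with DESeq2 (adjusted p = 0.0635). In HG-SIG against NC Epas1 rose by 0.84 ± 0.22 (adjusted p = 0.00499). Hif3a had 1, 2 and 3 counts and was not tested.

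Egln1 (ENSMUSG00000031987, chromosome 8, 124908587 to 124949324), the gene of the main prolyl hydroxylase acting on HIF-1 alpha, had 53.7, 49.3 and 55.8 CPM in NC. HG held 37.9, 38.1 and 36.5 CPM and HG-SIG 41.1, 34.0 and 38.7 CPM. Every library of HG and HG-SIG lay below every NC library, while HG and HG-SIG overlapped. The change was -0.50 ± 0.07 in HG against NC (adjusted p = 9.6e-05) and 0.02 ± 0.07 in HG-SIG against HG (adjusted p = 0.869, 95% interval -0.12 to 0.15). By library size alone the latter was 0.18 (adjusted p = 0.0406), about the size of the median shift under that scaling.

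Egln3 (ENSMUSG00000035105, chromosome 12, 54178981 to 54203860) encodes a prolyl hydroxylase whose gene is among the most hypoxia-responsive. Its level was 10.3, 10.4 and 10.8 CPM in NC, 8.70, 6.75 and 8.71 CPM in HG, and 10.7, 7.26 and 7.70 CPM in HG-SIG. Every HG library was lower than every NC library, but the change missed the threshold (-0.38 ± 0.14, adjusted p = 0.0536 with edgeR and adjusted p = 0.0449 with DESeq2). Of 19 alternatives 9 passed it. HG-SIG replicate 1 stood at the NC level; without it Egln3 was lower in HG-SIG than in NC (-0.49, adjusted p = 0.00273), against -0.30 ± 0.13 with it (adjusted p = 0.0702). The third paralog, Egln2, passed in neither HG against NC (0.13, adjusted p = 0.0526) nor HG-SIG against HG (-0.08, adjusted p = 0.177; 0.08 by library size alone). As a rise it passed in 4 of 19 alternatives in HG against NC, among them library size alone (adjusted p = 0.021), and with limma on log2(TPM + 1) in HG-SIG against HG (0.12, adjusted p = 0.0312).

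Of 13 other tested genes of oxygen sensing and HIF alpha turnover, 1 rose and 2 fell in HG against NC (median log2 fold change -0.02, all genes 0.00), and 4 rose and 3 fell in HG-SIG against HG (-0.06, all genes 0.01). By library size alone these were 3 and 2, and 6 and 0. Vhl, the substrate receptor of the ligase, fell in HG (-0.24 ± 0.05, adjusted p = 0.00216) and rose in HG-SIG against HG (0.29 ± 0.05, adjusted p = 2.8e-04). Siah2, a ubiquitin ligase for the prolyl hydroxylases, fell in HG (-0.37 ± 0.06) and was lower in HG-SIG than in NC (-0.48 ± 0.06). Hif1an, the asparaginyl hydroxylase that blocks coactivator binding, rose with sitagliptin from 37.0 to 44.6 CPM (0.27 ± 0.05, adjusted p = 6.6e-04). Rack1, an oxygen-independent route of HIF-1 alpha turnover, fell with sitagliptin (-0.23 ± 0.05, adjusted p = 9.9e-04). That call was lost by library size alone (-0.07, adjusted p = 0.181) and with limma on log2(TPM + 1) (-0.02, adjusted p = 0.588).

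Of 6 tested coactivator and modulator genes 2 rose in HG and none fell, with 2 rises and 1 fall in HG-SIG against HG (medians 0.11 and 0.01, all genes 0.00 and 0.01). Sirt1, a deacetylase, rose in HG (0.29 ± 0.05, adjusted p = 5.8e-04). The histone acetyltransferase gene Ep300 rose with sitagliptin (0.20 ± 0.06, adjusted p = 0.0126), and its paralog Crebbp rose in both steps (0.18 ± 0.06 and 0.17 ± 0.06). Each of these calls was lost in at least 1 fit that left out a library, except that of Sirt1; without HG replicate 1 adjusted p was 0.0576 for Ep300 and 0.115 for Crebbp in HG-SIG against HG, and without NC replicate 1 it was 0.126 for Crebbp in HG against NC. The count in HG dropped to 1 without NC replicate 1, NC replicate 3 or HG replicate 2, and the 2 rises with sitagliptin to 0 without HG replicate 1 or HG-SIG replicate 3. Pkm, whose M2 form can bind HIF-1 alpha, fell with sitagliptin from 9151 to 6574 CPM (-0.48 ± 0.05, adjusted p = 3.7e-06).

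**Figure D2:**
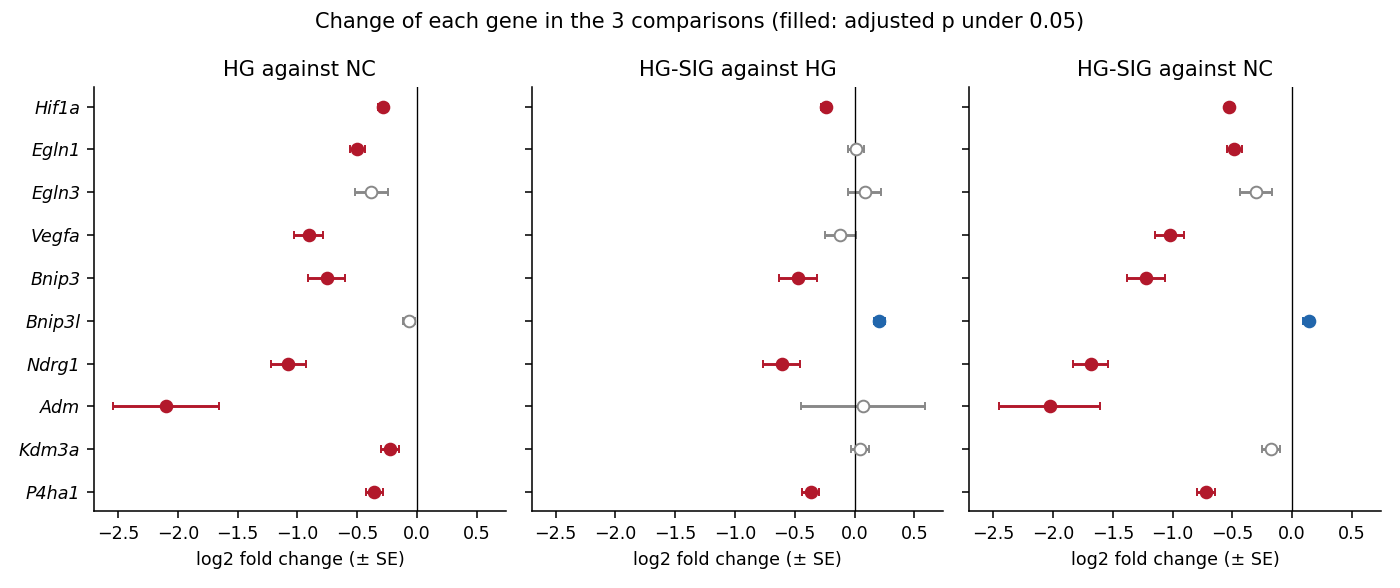
Fitted log2 fold change (horizontal axes, bars are SE) of the 10 genes (vertical axis) in the 3 comparisons; filled points have an adjusted p under 0.05. In HG against NC all 10 points lie below 0, from -0.07 for Bnip3l to -2.10 for Adm, and in HG-SIG against HG they lie on both sides.

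Promoters of the 10 genes were inspected for the core letters of the hypoxia response element, whatever the changes of the genes. RefSeq windows of 300 bases in build GRCm38.p6, 250 before to 50 after a start, were found for 8 of the 10 genes. ACGTG and GCGTG were searched on both strands; an ACGTG on each strand overlaps in the letters CACGTG. All 8 genes had a match in at least 1 window, as did 68% of the genes tested here that have a window and 46.7% of all genes with one. The upstream parts of 4 windows are printed because they show how many matches lie close to the start and how unevenly they are spread. They run 5′ to 3′ on the gene's strand and end before the first exon base of the annotation, and capitals mark matches on either strand. Bnip3 is chr7:138909520-138909756 (minus strand, 237 bases), P4ha1 chr10:59323046-59323295 (plus), Adm chr7:110627407-110627656 (plus) and Egln3 chr12:54203875-54204124 (minus).
Bnip3: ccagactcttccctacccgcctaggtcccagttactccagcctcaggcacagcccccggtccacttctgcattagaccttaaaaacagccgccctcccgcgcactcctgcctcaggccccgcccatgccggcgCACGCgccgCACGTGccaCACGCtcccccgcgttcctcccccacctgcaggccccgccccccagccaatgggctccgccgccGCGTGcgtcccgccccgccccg
P4ha1: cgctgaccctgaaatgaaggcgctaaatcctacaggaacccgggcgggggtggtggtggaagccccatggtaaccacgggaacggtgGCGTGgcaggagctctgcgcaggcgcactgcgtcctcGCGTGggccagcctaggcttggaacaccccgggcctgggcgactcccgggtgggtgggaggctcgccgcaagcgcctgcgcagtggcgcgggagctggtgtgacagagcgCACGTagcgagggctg
Adm: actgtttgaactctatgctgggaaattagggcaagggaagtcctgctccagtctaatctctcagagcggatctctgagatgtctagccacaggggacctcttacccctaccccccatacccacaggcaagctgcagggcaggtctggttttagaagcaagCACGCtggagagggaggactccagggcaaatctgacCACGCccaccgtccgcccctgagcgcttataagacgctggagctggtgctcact
Egln3: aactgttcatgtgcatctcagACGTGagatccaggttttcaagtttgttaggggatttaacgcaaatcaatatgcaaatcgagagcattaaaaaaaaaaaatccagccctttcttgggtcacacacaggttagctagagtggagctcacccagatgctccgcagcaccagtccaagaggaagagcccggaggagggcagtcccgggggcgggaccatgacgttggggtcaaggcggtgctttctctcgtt
Counted as the first matched base before the start, Bnip3 had matches at -117, -108, -107, -99 and -35, P4ha1 at -163, -126 and -16, Adm at -90 and -54, and Egln3 1 at -229. The window at the upstream start of Vegfa held none, which says only that these letters are not in that window. A match is a description of letters and not evidence of binding, and the number of matches was not tested against the changes.

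The secreted targets came next. Vegfa (ENSMUSG00000023951, chromosome 17, 46016993 to 46032369) encodes the angiogenic growth factor VEGF-A. Its level was 52.8, 43.5 and 57.1 CPM in NC, 26.5, 23.6 and 32.1 CPM in HG, and 29.3, 21.8 and 24.4 CPM in HG-SIG. All 6 glucose-treated libraries lay below the lowest NC library, and HG and HG-SIG overlapped. The level fell by 46.7% in HG (log2 fold change -0.91 ± 0.12, adjusted p = 1.3e-04). Between HG-SIG and HG the change was -0.12 ± 0.13 (adjusted p = 0.47, 95% interval -0.37 to 0.14), and by library size alone it was 0.04.

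Of 5 other tested genes of the VEGF family and receptors, 1 rose and 2 fell in HG (median -0.10, all genes 0.00), and 0 rose and 4 fell in HG-SIG against HG (median -0.80, all genes 0.01). Vegfb, a paralog not known for induction by hypoxia, rose in HG from 13.5 to 16.8 CPM (0.32 ± 0.08, adjusted p = 0.011) and fell with sitagliptin (-0.43 ± 0.08, adjusted p = 8.2e-04). The ratio of Vegfa to Vegfb, taken per length within each library, was 1.47, 1.06 and 1.80 in NC, 0.616, 0.5 and 0.718 in HG and 0.878, 0.658 and 0.727 for HG-SIG. The NC ratios lay above all others. For Vegfc, a lymphatic growth factor gene, the summed counts were 258, 86 and 14 in NC, HG and HG-SIG (log2 fold changes -1.46 ± 0.21 and -2.90 ± 0.33 for the steps, adjusted p = 2.0e-04 and 1.2e-05). The receptor gene Flt1 did not pass in HG (-0.09, adjusted p = 0.291) but fell with sitagliptin from 34.2 to 12.2 CPM (-1.48 ± 0.07). The coreceptor gene Nrp2 fell in both steps (-0.32 ± 0.05 and -0.80 ± 0.05).

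Adm (ENSMUSG00000030790, chromosome 7, 110627661 to 110629820) encodes the vasodilator peptide adrenomedullin and was the scarcest of the 10 genes. The 3 libraries of NC held 92, 53 and 120 counts, those of HG 17, 12 and 26, and those of HG-SIG 44, 8 and 21. In CPM these were 3.05, 2.19 and 4.01 in NC, 0.592, 0.471 and 1.14 in HG, and 1.39, 0.257 and 0.626 for HG-SIG. NC stood above both other groups in every library, and HG-SIG was the most scattered, with a coefficient of variation of 76.2%. Adm fell by 76.7% in HG (-2.10 ± 0.44, adjusted p = 0.00324). The change between HG-SIG and HG was 0.07 ± 0.52 (adjusted p = 0.919), with a 95% interval of -0.94 to 1.08, and its sign turned without HG-SIG replicate 1 (-0.69). The gene of its receptor core, Calcrl, fell in both steps, from 96.0 to 68.4 to 25.1 CPM (-0.49 ± 0.05 and -1.45 ± 0.06, adjusted p = 1.6e-05 and 8.6e-10). The receptor partner genes Ramp1, Ramp2 and Ramp3 had at most 11 counts in a group and were not tested.

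Bnip3 (ENSMUSG00000078566, chromosome 7, 138890836 to 138909519) and Bnip3l (ENSMUSG00000022051, chromosome 14, 66985239 to 67008877) encode related outer-membrane proteins that recruit the autophagy machinery to mitochondria. Bnip3 was at 285, 214 and 266 CPM in NC, 160, 133 and 161 CPM in HG, and 143, 84.3 and 100 CPM in HG-SIG. HG lay below NC in every library, while HG-SIG replicate 1 overlapped with HG. Bnip3 fell by 40.7% in HG (-0.75 ± 0.16, adjusted p = 0.00277). The further fall with sitagliptin (-0.47 ± 0.16, adjusted p = 0.0248) was lost in 4 of 9 fits that left out a library: without HG replicate 1, HG replicate 3, HG-SIG replicate 2 or HG-SIG replicate 3 adjusted p was 0.0752, 0.0528, 0.104 and 0.0843. It was also lost by library size alone (-0.31, adjusted p = 0.117) and with DESeq2 (adjusted p = 0.0697).

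Bnip3l took another course. Its level was 83.3, 77.6 and 84.1 CPM in NC, 79.2, 79.5 and 75.4 CPM in HG, and 95.1, 87.7 and 87.4 CPM in HG-SIG. NC and HG overlapped (-0.07 ± 0.05, adjusted p = 0.326), and all HG-SIG libraries lay above both. Bnip3l rose by 15.4% in HG-SIG against HG (0.21 ± 0.05, adjusted p = 0.00234). The rise against NC (0.14 ± 0.05, adjusted p = 0.0186) was lost without NC replicate 2 or HG-SIG replicate 1 (adjusted p = 0.0855 and 0.097). The ratio of Bnip3 to Bnip3l within a library does not depend on the scaling. Per length it was 5.82, 4.70 and 5.39 in NC, 3.44, 2.84 and 3.65 in HG, and 2.56, 1.64 and 1.95 for HG-SIG. The 3 groups did not overlap, with means of 5.31 ± 0.565, 3.31 ± 0.415 and 2.05 ± 0.471 (SD, n = 3).

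**Figure D3:**
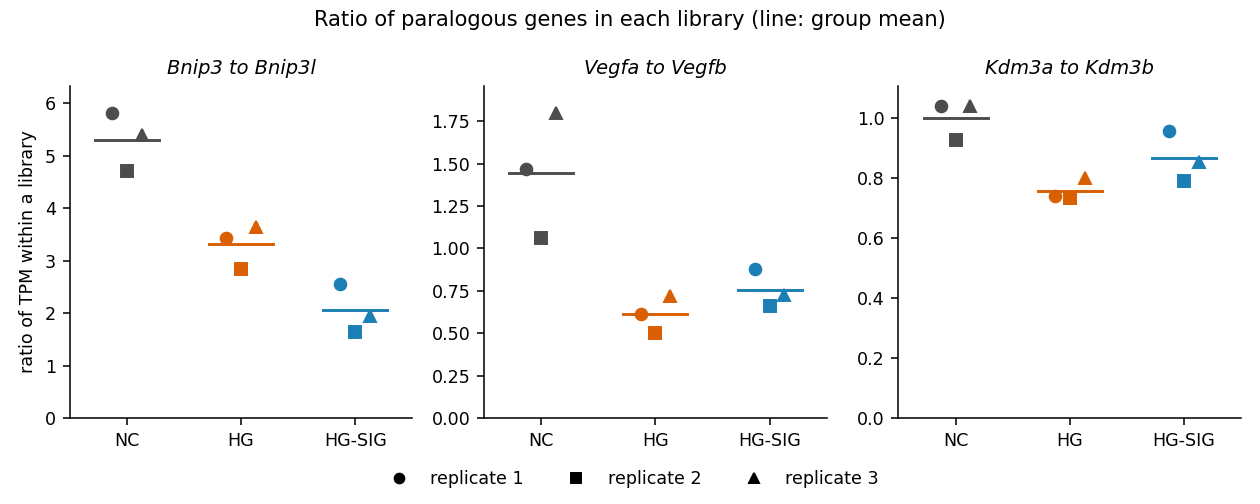
Ratio of TPM of a target gene to its paralog within each library (vertical axes, from 0) by group (horizontal axes); symbols mark the replicate number and lines the group mean. Bnip3 to Bnip3l steps down from 5.31 to 3.31 to 2.05, Vegfa to Vegfb is lower in both glucose groups, and Kdm3a to Kdm3b is lowest in HG.

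Among 9 other tested mitophagy receptors and adaptors 2 rose and 1 fell in HG, and 2 rose and 3 fell in HG-SIG against HG (medians 0.03 and -0.01, all genes 0.00 and 0.01; 4 and 1 by library size alone in the latter). The gene that fell in HG was Sqstm1, an autophagy receptor (-0.62 ± 0.04, adjusted p = 2.3e-07). Pink1, the kinase that marks damaged mitochondria, rose with sitagliptin (0.67 ± 0.10, adjusted p = 1.1e-04). Phb2, an inner-membrane receptor, fell with sitagliptin (-0.34 ± 0.04, adjusted p = 2.1e-05), and so did Fkbp8 (-0.22 ± 0.05, adjusted p = 0.00167). The call on Fkbp8 was lost by library size alone (-0.06, adjusted p = 0.257) and with limma on log2(TPM + 1) (-0.02, adjusted p = 0.74).

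Ndrg1 (ENSMUSG00000005125, chromosome 15, 66929318 to 66969640) encodes a cytosolic stress-response protein that is a common marker of hypoxia. It was at 116, 88.1 and 113 CPM in NC, 54.7, 42.2 and 54.2 CPM in HG, and 40.7, 25.4 and 32.8 CPM in HG-SIG. The groups did not overlap. Ndrg1 fell by 52.5% in HG (-1.08 ± 0.15, adjusted p = 1.1e-04) and fell by 34.5% in HG-SIG against HG (-0.61 ± 0.15, adjusted p = 0.00523), and both calls held in every fit that left out a library and under each scaling. An opposite-strand gene, Gm2895, overlaps 2.08% of its exonic length. Its paralogs went the other way in HG: Ndrg2 rose from 129 to 277 CPM (1.11 ± 0.06, adjusted p = 1.6e-08), Ndrg4 from 69.7 to 118 CPM (0.76 ± 0.07, adjusted p = 2.5e-06) and Ndrg3 from 57.9 to 69.4 CPM (0.26 ± 0.04). With sitagliptin Ndrg2 (-0.68 ± 0.06) and Ndrg4 (-1.51 ± 0.07) fell and Ndrg3 rose (0.33 ± 0.04).

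Kdm3a (ENSMUSG00000053470, chromosome 6, 71588972 to 71632990) encodes an oxygen-dependent demethylase of histone H3. Its level was 73.2, 66.2 and 75.7 CPM in NC, 58.5, 58.7 and 67.5 CPM in HG, and 69.6, 57.2 and 63.7 CPM in HG-SIG. NC and HG overlapped, through HG replicate 3. The fall in HG was small and near the threshold (-0.22 ± 0.08, adjusted p = 0.0424). It was lost by library size alone (adjusted p = 0.0793) and without NC replicate 1, NC replicate 3, HG replicate 1, HG replicate 2 or HG-SIG replicate 3 (adjusted p = 0.123, 0.152, 0.141, 0.136 and 0.055). Kdm3a passed neither in HG-SIG against HG (0.05 ± 0.08, adjusted p = 0.626) nor in HG-SIG against NC (-0.18 ± 0.07, adjusted p = 0.059), and the latter passed, as a fall, in 9 of 19 alternatives (adjusted p = 0.0375 with DESeq2 and 0.0179 without HG-SIG replicate 1) and had the opposite sign by library size alone (0.01).

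Its paralog Kdm3b rose in HG from 123 to 139 CPM (0.18 ± 0.04, adjusted p = 0.00235) and fell in HG-SIG against HG (-0.15 ± 0.04, adjusted p = 0.00407), though by library size alone the latter was 0.01. The ratio of Kdm3a to Kdm3b per length was 1.04, 0.927 and 1.04 in NC, 0.740, 0.734 and 0.801 in HG, and 0.956, 0.791 and 0.855 for HG-SIG. HG lay below NC without overlap. Of 15 tested JmjC demethylase genes other than Kdm3a, 2 rose and 7 fell in HG and 5 rose and 5 fell in HG-SIG against HG (medians -0.16 and 0.08, all genes 0.00 and 0.01; 10 and 3 by library size alone in the latter). Kdm6b, an H3K27 demethylase gene induced in inflammation, fell in HG (-0.64 ± 0.08), and Jmjd1c fell in both steps (-0.59 ± 0.07 and -0.43 ± 0.07). Kdm5b and Kdm4a fell in HG (-0.78 ± 0.08 and -0.21 ± 0.04) and rose in HG-SIG against HG (0.38 ± 0.08 and 0.33 ± 0.04).

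P4ha1 (ENSMUSG00000019916, chromosome 10, 59323296 to 59373304) encodes the catalytic subunit of collagen prolyl 4-hydroxylase, like the Egln enzymes a dioxygenase that uses oxygen. It was at 302, 271 and 290 CPM in NC, 228, 206 and 241 CPM in HG, and 191, 157 and 176 CPM in HG-SIG. The groups did not overlap. P4ha1 fell by 21.9% in HG (-0.36 ± 0.07, adjusted p = 0.00228) and fell by 22.4% in HG-SIG against HG (-0.37 ± 0.07, adjusted p = 9.9e-04), the latter not passing with limma on log2(TPM + 1) (-0.16, adjusted p = 0.105). Its partner subunit gene P4hb fell in both steps as well (-0.26 ± 0.04 and -0.36 ± 0.04, adjusted p = 4.3e-04 and 1.2e-05). P4ha2, the alternative catalytic subunit, had 38, 22 and 32 counts in the 3 groups and did not pass. Of 9 other tested genes of collagen hydroxylation 0 rose and 3 fell in HG, and 1 rose and 4 fell in HG-SIG against HG (medians -0.14 and 0.02, all genes 0.00 and 0.01; 3 and 3 by library size alone in the latter). Plod1, a lysyl hydroxylase gene, fell in both steps (-0.27 ± 0.05 and -0.32 ± 0.05), the latter not passing with limma on log2(TPM + 1) (-0.12, adjusted p = 0.0961). P3h1, a prolyl 3-hydroxylase gene, rose with sitagliptin (0.50 ± 0.07).

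Levels of different genes were compared per length, as mean TPM within a group. In NC Bnip3 stood highest at 360 ± 52.5 TPM, then P4ha1 (223 ± 12.7), Hif1a (104 ± 5.05), Bnip3l (67.6 ± 3.09), Ndrg1 (51.3 ± 7.6), Egln1 (47.0 ± 2.98), Vegfa (38.1 ± 5.23), Kdm3a (27.8 ± 1.97), Egln3 (12.6 ± 0.334) and Adm (6.09 ± 1.8; SD, n = 3). Only Ndrg1 and Egln1 overlapped among neighbours in NC. In HG Bnip3 (218 ± 26.6) and P4ha1 (179 ± 17.8) already overlapped. Ndrg1 (25.0 ± 3.86) came after Egln1 (34.1 ± 0.122) there and overlapped Kdm3a (24.5 ± 2.59). In HG-SIG the top stayed with Bnip3 (181 ± 50.7) and P4ha1 (160 ± 16.5), which overlapped as in HG. Bnip3l (87.8 ± 4.2) and Hif1a (85.6 ± 1.03) overlapped in HG-SIG. Ndrg1 (18.8 ± 4.43) came after Kdm3a (29.1 ± 2.97), with libraries that overlapped those of Vegfa (22.1 ± 3.37) and Egln3 (12.1 ± 2.62).

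Within groups the same libraries were high or low for most of the 10 genes. NC replicate 2 was the lowest of its group for 9 of the 10 genes, where 35.2% of all tested genes had their lowest NC value in it. HG replicate 2 was the lowest for 6 genes (29.7% of all tested genes). HG-SIG replicate 1 was the highest for 9 genes (30.7%) and HG-SIG replicate 2 the lowest for 8 (32.6%). The deviations of HG-SIG replicate 1 from its group mean were 0.43 for Bnip3, 0.33 for Ndrg1, 0.34 for Egln3 and 1.08 for Adm on the log2 scale, but -0.01 for Hif1a. The coefficient of variation across the HG-SIG libraries was 1.01% for Hif1a and 27.9% for Bnip3. The other target lists leaned the same way: HG-SIG replicate 1 was the highest of its group for 29 of 38 non-glycolytic and 14 of 16 glycolytic targets. Without HG-SIG replicate 1 the counts of the 10 genes called were 9 in HG against NC, 5 in HG-SIG against HG and 9 in HG-SIG against NC. Over all 13490 genes tested in that fit, 3644, 6208 and 7127 were called in the same comparisons.

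**Figure D4:**
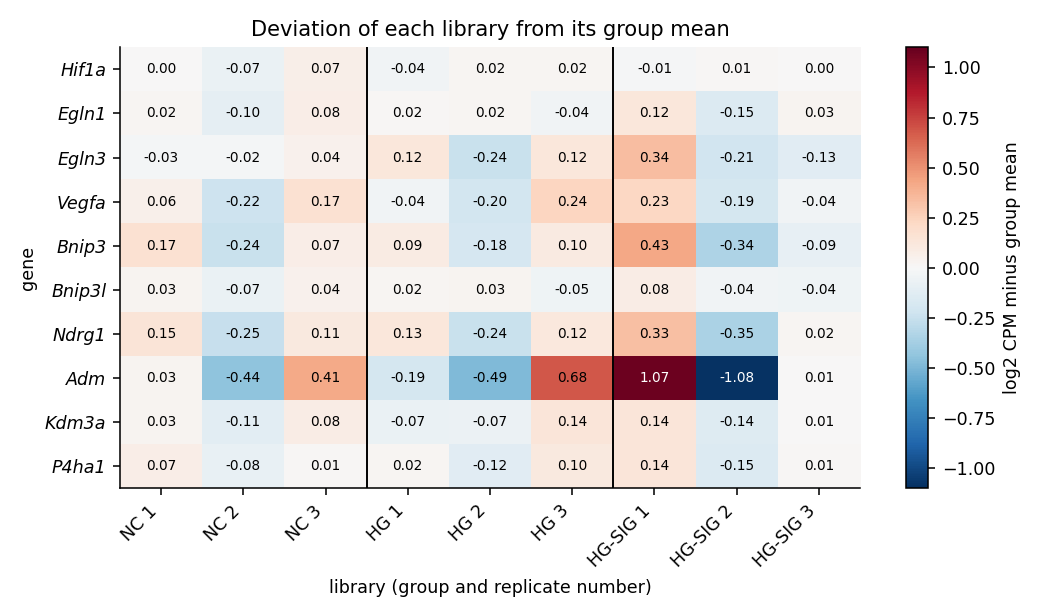
Deviation of each library from its group mean in log2 CPM (color and printed value) for the 10 genes (vertical axis) in the 9 libraries (horizontal axis, groups separated by lines). HG-SIG replicate 1 is above its group mean for 9 genes and HG-SIG replicate 2 is below for 9, while the Hif1a row stays within -0.07 and 0.07.

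Beyond the 10 genes, 38 further non-glycolytic HIF-1 targets were tested. Some of them, such as Flt1 and Plod1, were also counted in lists above, so the lists are not separate sets. In HG 1 rose, 21 fell and 16 did not pass (median log2 fold change -0.32, all genes 0.00). In HG-SIG against HG 7 rose and 18 fell (median -0.16, all genes 0.01; 8 and 14 by library size alone, 10 and 10 with limma on log2(TPM + 1)). Rbpj, the Notch effector gene, fell from 208 to 151 to 49.6 CPM (-0.47 ± 0.06 and -1.60 ± 0.06), and the filament gene Vim from 1679 to 1248 to 703 CPM (-0.43 ± 0.05 and -0.83 ± 0.05). The sum of the macrophage markers, among which Lyz2 had the most counts, was lower in HG-SIG as well. It was 5200 to 5310 CPM against 10000 to 10800 CPM in HG, and the part of the markers in these falls was not tested. Nos2 summed to 67, 9 and 0 counts in the 3 groups. Taking the 9 counts of HG as exact, it was at least 3.76-fold lower in HG-SIG against a floor of 3 counts over the group. With Nos2 at that bound the median stayed -0.16.

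Of 16 tested glycolytic targets 8 fell and none rose in HG (5 by library size alone and without NC replicate 1, NC replicate 2 or HG replicate 2), and 9 fell and none rose in HG-SIG against HG (medians -0.17 and -0.24, all genes 0.00 and 0.01; 1 rise and 8 falls by library size alone in the latter). The glucose transporter gene Slc2a1 fell in HG from 338 to 169 CPM (adjusted p = 8.7e-07). Hk1 and Ldha fell with sitagliptin (-0.51 ± 0.04 and -0.52 ± 0.05), with adjusted p = 3.3e-07 and 1.9e-06.

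**Figure D5:**
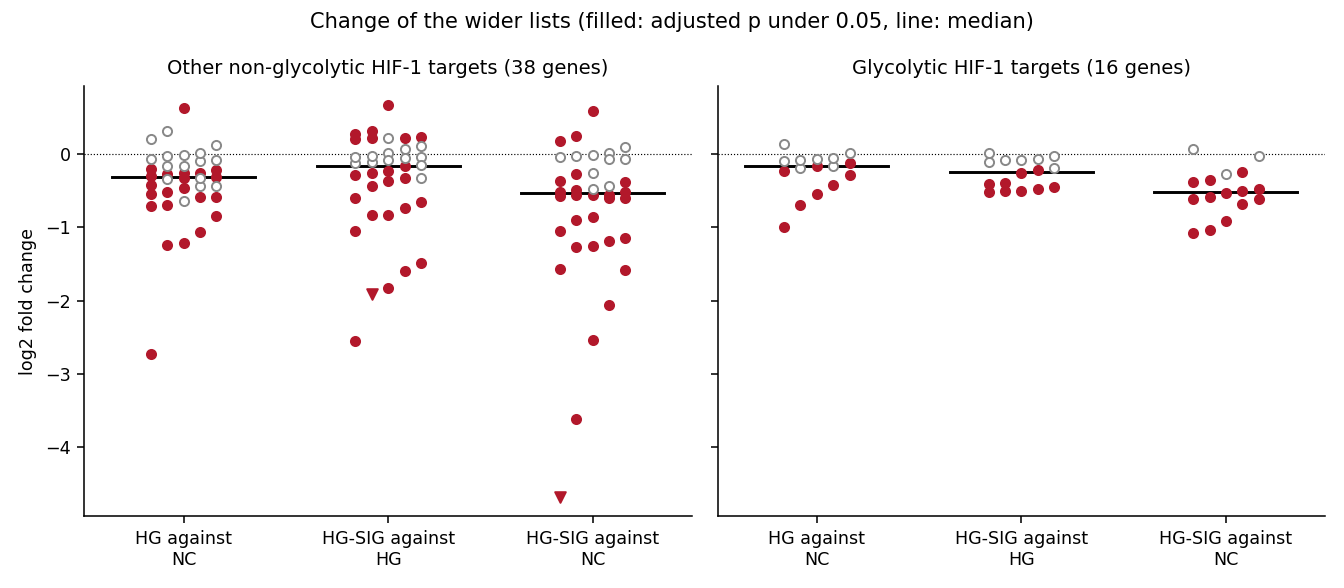
Fitted log2 fold changes (vertical axis) of 38 other non-glycolytic and 16 glycolytic HIF-1 targets in the 3 comparisons (horizontal axis); filled points have an adjusted p under 0.05, lines are medians, and triangles place Nos2 at its bound where HG-SIG had 0 counts. The medians are -0.32, -0.16 and -0.54 on the left and -0.17, -0.24 and -0.52 on the right.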

How the data were processed

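RNA of 9 RAW264.7 libraries was measured as gene counts, which the authors deposited as 1 column of whole numbers per library. Bowtie2 2.3.5, RSEM and the build mm10 are named in the submitters' processing notes; the sources used here give neither the annotation release nor the strand setting. Unannotated loci (1996 of 20627 features) held 5.85% to 6.21% of counts and stayed in the tests. Groups came from sample titles, and glucose and time from the series text. The labels do not say whether replicates came from separate cultures; p-values cover the spread among these libraries only, and that spread may be technical.

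Low counts were removed by filterByExpr (13311 genes left), the rest scaled by TMM, and 1 mean per group was fitted over all 9 libraries in edgeR 4.0.16 (R 4.3.3). Quasi-likelihood F-tests were adjusted over all genes (Benjamini-Hochberg) and called at an adjusted p under 0.05; intervals are 1.96 SE. TPM used exon lengths of GENCODE M21 (GRCm38). The 10 genes, the lists and the tests were chosen with earlier results of these data known. Of each list, up to 4 genes with the lowest p were named, plus paralogs and partners whatever their values; 1 such gene is not reported here. Alternatives were DESeq2 1.42.0, limma 3.58.1 (voom, and on log2(TPM + 1), after the series text, which gives no pseudocount), other scalings and filters, a replicate block, and leaving out libraries. The fit was tested on simulated counts of 13164 genes for HG against NC: it recovered 77.8% of genes changed by 0.5 and 89.8% of those changed by 1 (log2), with 5.2% of calls false. Only a small random set of genes was changed there, up or down and in HG alone. The simulated fit made 174 calls, against 3927 in the data. Its false share therefore does not carry over to these comparisons, and it did not test the choice of scaling. A floor of 3 counts was 0.095 to 0.129 CPM; it covers counting error only.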

Additional observations from a re-analysis of the deposited data

How the results depend on the processing

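Of the refits of calls on the 10 genes over 19 alternatives, 380 kept direction and call, 19 lost the call and none changed sign; those not given above were lost with limma on log2(TPM + 1), Bnip3 in HG-SIG against HG (adjusted p = 0.152) and Kdm3a in HG against NC (adjusted p = 0.138). No count of genes called, over all genes or over the 10, moved by over 1.5 times. Leaving out a library gave 3062 to 4000 genes called in HG against NC, 6193 to 7147 in HG-SIG against HG and, for HG-SIG with NC, 7106 to 8191, and 7 to 9, 4 to 5 and 8 to 9 of the 10 genes. By library size alone 58.9%, 76.9% and 76.2% of calls were higher, against 48.4%, 48.9% and 51.0% with TMM, and of the 5 of the 10 genes called in HG-SIG against HG 3 were higher (Bnip3l, Egln1 and Kdm3a) and 2 lower. With limma on log2(TPM + 1) 59.1%, 81.9% and 80.2% of calls were higher.

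Some signs turned in HG-SIG against HG, all of values not called except the fall of Kdm3b. By library size and with limma on log2(TPM + 1) these were Vegfa (0.042 and 0.079), Egln2 (0.083 and 0.122, the latter called at adjusted p = 0.0312), Kdm3b (0.014 and 0.056) and Adora2b (0.128 and 0.148), and in HG-SIG against NC Kdm3a (0.013 and 0.057); Adm turned with limma-voom (-0.135). Leaving out a library gave -0.046 to 0.088 for Egln1, -0.106 to 0.186 for Egln3, -0.24 to 0.007 for Vegfa, -0.685 to 0.504 for Adm, -0.023 to 0.12 for Kdm3a and -0.126 to 0.046 for Adora2b; the causes were not tested.

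The replicate numbers were not used as pairs in the main fit. Deviations of same-numbered libraries correlated at -0.003 to 0.099 over 9 pairs, and those of differently numbered libraries at -0.077 to 0.041. Of the 9 libraries, 4 correlated best with their own number in both other groups. Whether same-numbered libraries share a source was not tested. With the number as a replicate block, 4663, 7563 and 8282 genes were called in the 3 comparisons in the same order, against 3927, 6989 and 7801 without it. Of the 10 genes 9, 5 and 10 were then called, against 8, 5 and 8. Egln3 then passed in HG against NC (-0.39, adjusted p = 0.0177). Adm had 55 counts over the HG libraries and 73 over those of HG-SIG, the lowest of the 10 genes.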

Other observations

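Of the further non-glycolytic targets counted above, 5 chosen after their values were seen differed in how HG-SIG stood to HG. Adora2b, an adenosine receptor gene, fell by 57.7% in HG, to 4.25 CPM (-1.24 ± 0.10 on the log2 scale, adjusted p = 1.6e-06) and was at 4.15 CPM in HG-SIG (-0.03 ± 0.11, adjusted p = 0.827). Ddit4, an inhibitor of mTORC1 signalling, fell in HG from 5.4 to 2.31 CPM (-1.22 ± 0.18, adjusted p = 2.0e-04) and rose to 3.68 CPM in HG-SIG (0.66 ± 0.18, adjusted p = 0.00898). Gbe1, the glycogen branching enzyme gene, fell in HG (-0.26 ± 0.05) and rose with sitagliptin (0.24 ± 0.05, adjusted p = 0.00169). Hmox1, the heme oxygenase gene, fell in both steps, from 139 to 111 to 62.3 CPM (-0.32 ± 0.06 and -0.83 ± 0.06), and so did the adenylate kinase gene Ak4, from 163 to 114 to 87.6 CPM (-0.52 ± 0.11 and -0.38 ± 0.11). The second call on Ak4 was lost by library size alone (-0.22, adjusted p = 0.122) and with limma on log2(TPM + 1) (-0.18, adjusted p = 0.207). It was also lost without HG-SIG replicate 2 or HG-SIG replicate 3 (adjusted p = 0.0565 and 0.0501).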
